A study of Mus musculus with 6 samples.

Results

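Replication origin licensing is described here through 9 mouse genes, Cdc6, Cdt1, Orc1, Mcm2, Mcm3, Mcm4, Mcm5, Mcm6 and Mcm7, of 21887 protein-coding genes on chromosomes 1 to 19, X and Y. The group was selected on a measured value, since Cdc6 was picked for having one of the strongest Flag-Rxra peaks at a gene end. The other 8 genes were chosen by their function, with earlier results of these data known. CUT&Tag, in which an antibody guides a transposase so that released fragments mark the bound place, was done on OG2X129 mouse embryonic fibroblasts in chemical reprogramming. The 6 samples formed 3 groups of 2: cells given CD and profiled for H3K27ac, an acetylated histone of active promoters and enhancers; cells given DMSO, a common solvent, and profiled for the same mark; and cells that overexpress Flag-tagged Rxra, profiled with a Flag antibody. The labels write only CD; the series title names CD3254, an agonist of retinoid X receptors. The labels do not give the day of reprogramming, the promoter that drives Flag-Rxra, the compound given to the cells with Flag-Rxra, if any, or whether replicates were separate cultures. No control library was used here, so what share of the peaks any antibody would give was not tested.

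In the G1 phase the origin recognition complex, of which Orc1 is the largest and cell cycle regulated subunit, marks origins of replication. Cdc6 and Cdt1 then load the ring of Mcm2 to Mcm7, the core of the replicative helicase, onto DNA. Many genes of this set are textbook targets of E2F transcription factors, which switch on S phase genes in dividing cells such as fibroblasts. Rxra is a nuclear receptor that binds DNA mostly with a partner receptor at repeats of a short core motif.

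The lists held 28243 Flag-Rxra peaks in replicate 1 and 45999 in replicate 2, of which 17623 replicate 1 peaks overlapped a replicate 2 peak and are called shared. There were 104437 H3K27ac regions in CD and 75482 in DMSO, with 1 list for both replicates of a condition, so H3K27ac values have no replicate error. Fold is the authors' enrichment over background, and −log10 q is their peak caller's value; the sequencing depth is unknown. Of 15 fibroblast marker genes, 7 had an H3K27ac region within 1 kb of an end in CD and 6 in DMSO, where 38.3% and 35.8% of all protein-coding genes had one. Among the 7 with none in either list were Col1a1, Col1a2 and Thy1. In CD and DMSO such regions lay at 3 and 1 of 6 macrophage, 1 and 3 of 5 endothelial, 2 and 1 of 5 epithelial and 1 and 2 of 5 neural markers, so the lists at gene ends did not set fibroblast markers clearly apart.

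A shared Flag-Rxra peak lay within 1 kb of an annotated end of 6 of the 9 genes: Cdc6, Cdt1, Mcm4, Mcm5, Mcm6 and Mcm7. The share among all protein-coding genes was 32.6%. Because Cdc6 was picked on this readout, the count describes the set and supports nothing. Within 2.5 kb it was the same 6 genes, against 37.0% of all genes. Just outside these windows stood Mcm2, whose nearest shared peak began 3378 bp from its end, and Orc1, whose nearest began 3597 bp away. The Orc1 peak nevertheless covered a RefSeq start of Orc1 that lies 3749 bp inside the gene model. Counted from RefSeq starts, 6 of the 8 genes with such an entry had a shared peak within 1 kb, now with Orc1, against 34.3% of 17492 genes. Mcm2 and Mcm3 had none by either count.

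**Figure D1:**
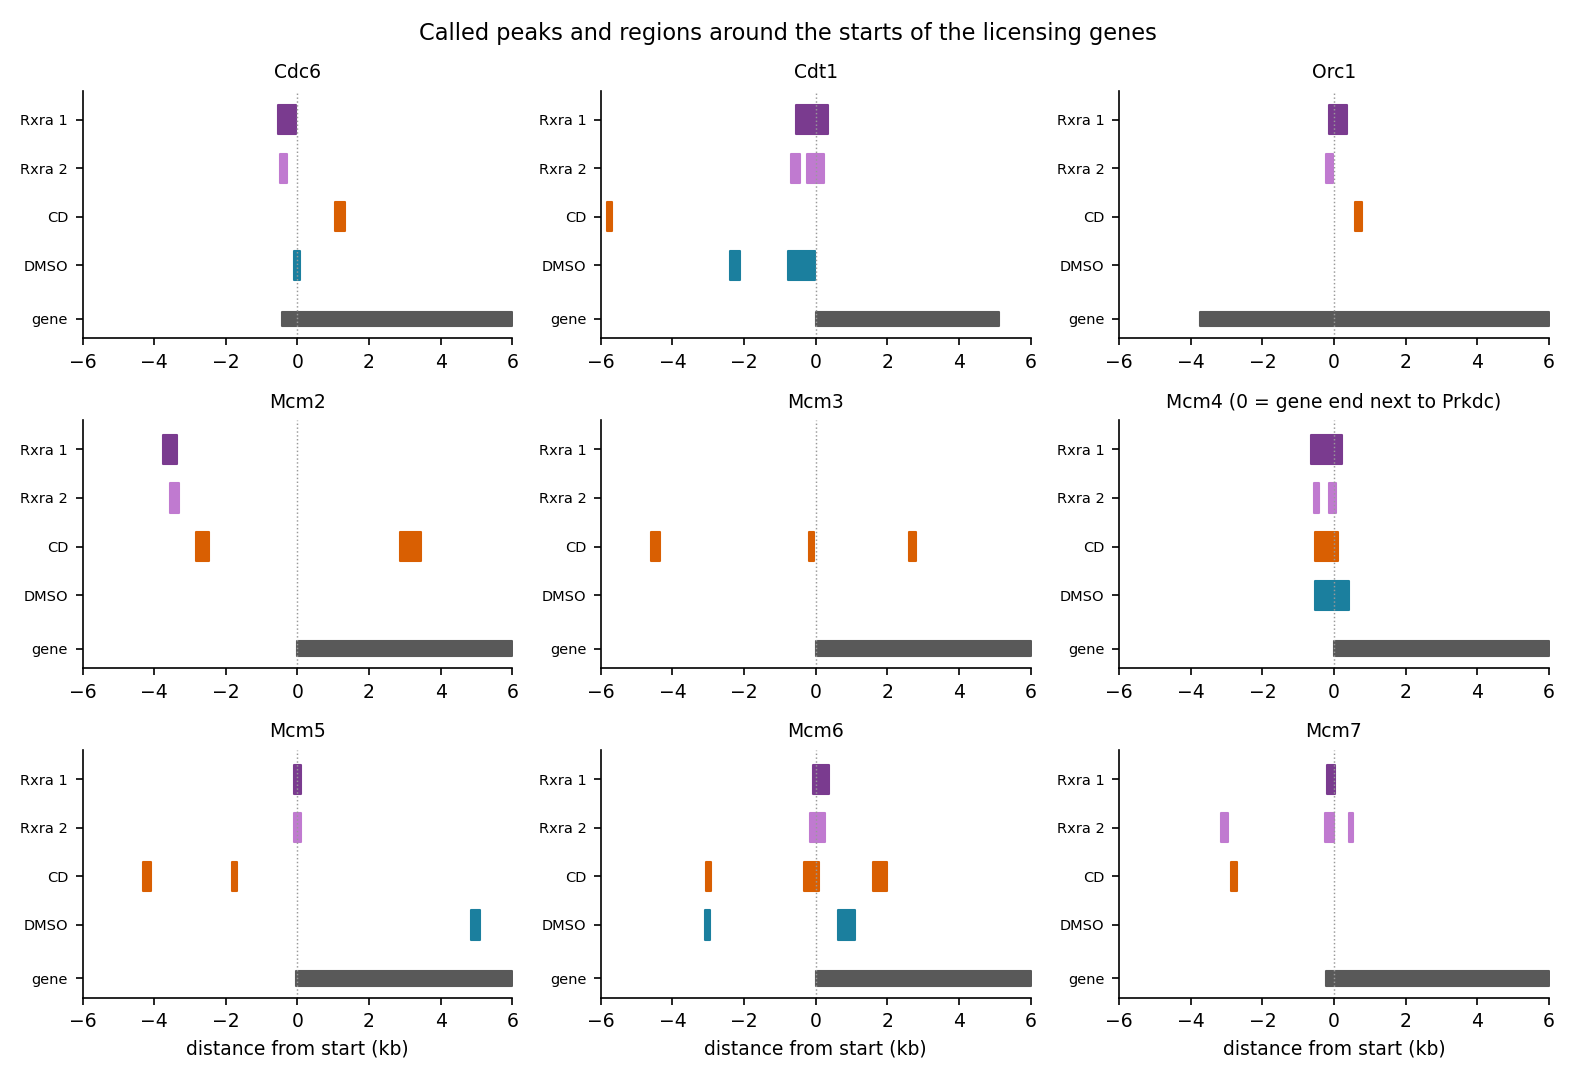
Called intervals in the 4 peak lists (rows: Flag-Rxra replicates 1 and 2, H3K27ac in CD and in DMSO) and the gene model (grey) by distance in kb from the RefSeq start of each gene, with the gene reading to the right; for Mcm4, which has no such entry, 0 is the end next to Prkdc. Flag-Rxra intervals of both replicates sit at or just beside 0 in all panels but Mcm2, where they lie further upstream, and Mcm3, which has none in the plotted range.

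The sequences at these starts are shown because most of the peaks lie on them, with Mcm2 and Mcm3, which had no peak there, for comparison. They are RefSeq sequences of GRCm38.p6, read 5′ to 3′ along the gene. Capitals mark an E2F core (TTGGCGC, the form TTCCCGC, the form TTCGCGC and the form TTGCCGC), the promoter box CCAAT and the core motif of retinoid X receptors (AGGTCA), each on either strand. Where a match lies inside the gene model, only 30 bases around it are given. Not all matches are shown, and the upstream sequence of Mcm3, which holds CCAAT boxes, is left out.
Cdc6, chr11:98908001-98908030, + strand, under the peak: ggccggtggagaGCGGGAAatcgcctgggg
Cdt1, chr8:122568035-122568064, + strand, under the peak: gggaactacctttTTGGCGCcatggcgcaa
Orc1, chr4:108579415-108579444, + strand, under the peak: tttcggttagtgGCGCGAAaagttttctcc
Mcm7, chr5:138171849-138171878, − strand, under the peak: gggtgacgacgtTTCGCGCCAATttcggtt
Mcm5, chr8:75109259-75109467, + strand, last 44 bases under the peak: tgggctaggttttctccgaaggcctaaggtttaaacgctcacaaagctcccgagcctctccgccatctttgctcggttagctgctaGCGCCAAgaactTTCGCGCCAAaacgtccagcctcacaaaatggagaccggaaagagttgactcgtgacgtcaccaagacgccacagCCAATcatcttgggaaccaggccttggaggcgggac
Mcm6, chr1:128359706-128359955, − strand, last 72 bases under the peak: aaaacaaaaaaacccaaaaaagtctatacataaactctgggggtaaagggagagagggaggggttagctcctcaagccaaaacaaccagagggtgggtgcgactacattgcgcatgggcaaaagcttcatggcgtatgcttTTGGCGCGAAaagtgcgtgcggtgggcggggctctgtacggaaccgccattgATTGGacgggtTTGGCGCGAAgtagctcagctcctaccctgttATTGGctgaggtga
Mcm3, chr1:20820263-20820292, − strand, no peak: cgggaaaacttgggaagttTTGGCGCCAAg
Mcm2, chr6:88898781-88899030, − strand, no peak: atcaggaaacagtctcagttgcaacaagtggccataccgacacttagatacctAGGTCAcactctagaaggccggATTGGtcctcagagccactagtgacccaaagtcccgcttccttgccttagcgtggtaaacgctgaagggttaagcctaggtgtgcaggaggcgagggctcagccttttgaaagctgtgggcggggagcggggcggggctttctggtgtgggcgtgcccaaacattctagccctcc

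E2F cores recurred in the promoters of the set, with and without a Flag-Rxra peak. Promoter windows ran from 250 bases before to 50 after a RefSeq start, and 8 of the 9 genes matched, with 9 windows because Mcm7 has 2 starts. An E2F core was present for 7 of the 8 genes, all but Mcm2, and in 8 of the 9 windows. The shares by window were 12.1% of 21263 windows of protein-coding genes and 19.8% of the 6174 windows that overlap a shared peak. Where 2 matches overlap, as in the long capital runs of Mcm3, Mcm5 and Mcm6, each was a match of its own. In Mcm7 an E2F match also overlaps a CCAAT match. A CCAAT box was present for 6 genes and in 7 of the 9 windows (38.2% of all windows, 45.2% of those with a peak), as was a GC box, GGGCGG (46.2% and 74.7%). The core motif AGGTCA occurred in the Mcm2 window only (14.7% and 11.1%), at -197 from the start, where no Flag-Rxra peak was called. The letters TTTGAA, a CHR element, were also found for Mcm2 alone (16% and 10.3%). No window of the set held a direct repeat of AGGTCA with a gap of 0 to 5 bases (0.0658% and 0.0486%) or an AP-1 site, TGACTCA on either strand (4.66% and 3.29%). Such matches are letters in a window, not sites, and variants of the core motif were not searched. The G and C content of the windows ran from 48.7% for Mcm3 to 66.7% for Cdt1, with medians of 56.3% over all windows and 63.0% over those with a peak.

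Cdc6, the ATPase that loads the helicase together with the origin recognition complex, had the highest folds of the set in both replicates. Its peak (chr11:98907620-98908104) had folds of 24.4 in replicate 1 and 39.3 in replicate 2, with −log10 q of 111 and 159. The summits of the replicates were 1 bp apart and 27 bp from the end of the gene model (chr11:98907709-98923942), at -415 bp from the RefSeq start in replicate 1. Among the 7128 genes with a shared peak at an end, Cdc6 ranked 5 by the sum of both fold ranks, between Nkapl (27.7 and 39.5) and Tent2 (25.3 and 36.7). This rank is what the gene was picked on. The replicate 2 peak was 198 bp wide and the replicate 1 peak 485 bp, so that with an overlap of 50% of both peaks Cdc6 no longer had a shared peak.

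Cdt1, which escorts the helicase ring to origins, had folds of 9.81 and 14.6 in a peak of 897 bp over its start (chr8:122567451-122568347). In replicate 2 this peak was divided into 2 called peaks. Orc1 had folds of 13.3 and 15.2 (chr4:108579302-108579826), with the summit at -94 bp from the RefSeq start in replicate 1 and -55 bp in replicate 2. That start lies 118 bp from the end of Prpf38a, a splicing factor gene read on the opposite strand, and the summit was 24 bp from that end. The Orc1 peak can therefore not be assigned to one of the 2 genes.

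Among the helicase subunits, folds at the gene ends were close to those of other genes with a peak. Mcm4 had folds of 12.6 and 16.8 (chr16:15637182-15638031), Mcm5 12.2 and 11.8 (chr8:75109424-75109622), Mcm6 8.67 and 14.0 (chr1:128359330-128359777) and Mcm7 14.3 and 15.1 (chr5:138171846-138172090). Over all 7128 genes the median folds were 11.3 and 15.7, with quartiles of 8.87 and 14.3 in replicate 1 and 11.9 and 20.1 in replicate 2. Mcm6 fell below the lower quartile in replicate 1, Mcm5 in replicate 2 and, besides Cdc6, no gene of the set was above the upper quartile in both. Mcm4 and Mcm7 share their peaks with neighbours. Mcm4 is 43 bp from Prkdc, the catalytic subunit of DNA-dependent protein kinase. In replicate 1 the Mcm4 peak had its summit inside Prkdc, 136 bp from the Prkdc end. This peak overlapped 2 replicate 2 peaks, and the summit of the one with the higher fold was 300 bp away. The gene models of Mcm7 and Ap4m1, an adaptor complex subunit read on the opposite strand, overlap by 91 bases. In replicate 1 the Mcm7 peak had its summit 101 bp from the Ap4m1 end. From a RefSeq start of Mcm7 the summit was at -37 bp in replicate 1 and -89 bp in replicate 2. By replicate 1 summits and annotated gene ends, only Cdc6, Cdt1, Mcm5 and Mcm6 thus had a peak nearest to an end of their own. With peaks of −log10 q of 20 or more in both replicates, Cdc6, Cdt1, Mcm4 and Mcm7 stayed among genes with a peak, and 24.2% of all genes did.

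**Figure D2:**
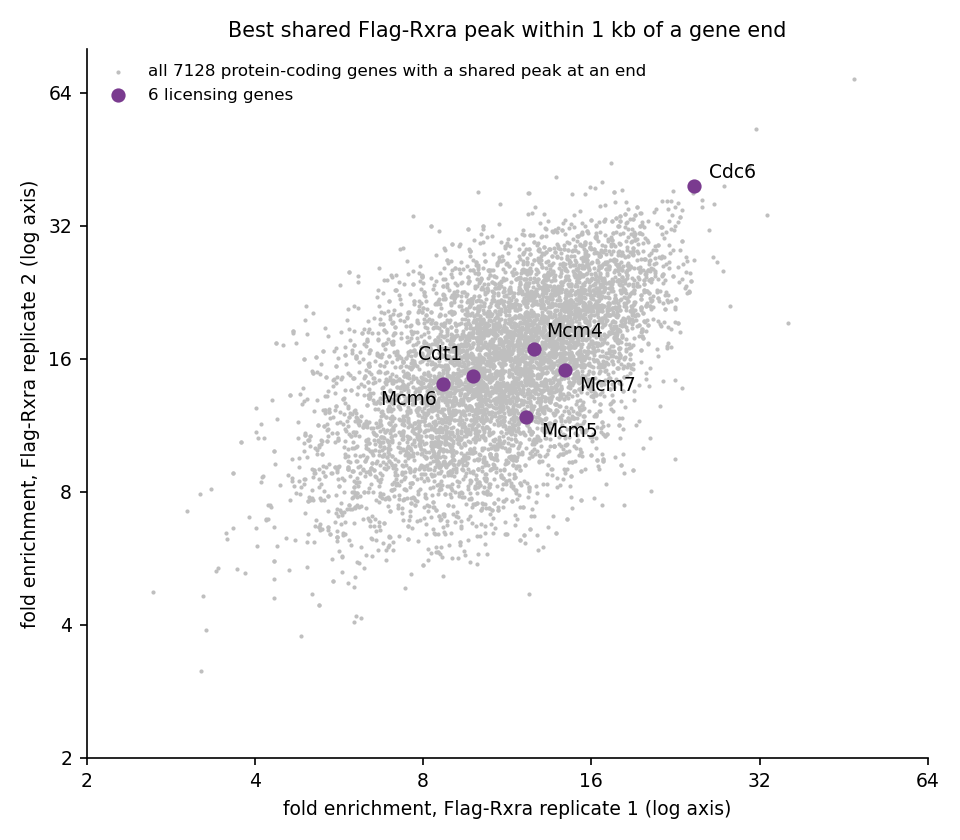
Fold enrichment of the best shared Flag-Rxra peak within 1 kb of an end in replicate 1 (x) and replicate 2 (y), both log axes, for all 7128 protein-coding genes with such a peak (grey) and the 6 licensing genes (purple). Cdc6 lies near the upper right edge at 24.4 and 39.3, and the other 5 lie in the body of the cloud.

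Mcm2 and Mcm3 stood apart by the lack of a peak at their starts. The Mcm2 peak upstream of the gene (chr6:88902158-88902526) had folds of 6.92 and 12.2, and its summit was 89 bp from an end of the neighbour Tpra1 and 3382 bp from Mcm2. No shared peak lay within 50 kb of Mcm3, and 1 replicate 1 peak, with a fold of 8.92, had its edge 27848 bp from the gene. A peak that is not called does not show that Rxra is absent.

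Within 50 kb of their ends, 8 of the 9 genes had at least 1 shared Flag-Rxra peak, against 68.1% of all genes. The 24 peaks were spread unevenly, with 7 around Cdc6, 5 around Cdt1, 3 each around Mcm2, Mcm5 and Mcm7 and 1 each around Orc1, Mcm4 and Mcm6. The median was 3 per gene, and 1 over all protein-coding genes. Replicate 2 alone gave 47 peaks and replicate 1 alone 37. Peaks common to both by 50% of their lengths numbered 11, and those with −log10 q of 20 or more numbered 14. From 1 (Mcm3) to 8 (Mcm7) other protein-coding genes have an end in these windows, and several peaks belong to them by position. Around Cdc6, 4 of the 7 had their summits inside Rara, the retinoic acid receptor alpha gene and a partner of Rxra, with replicate 1 folds between 3.83 and 8.50 and replicate 2 folds between 6.18 and 12.3. A further peak lay 1657 bp before the start of Rara (3.82 and 7.40), and 1 lay inside Cdc6 (6.99 and 10.9). Around Mcm5, 2 distal peaks lay 4009 bp (chr8:75089369-75089801, folds of 11.5 and 15.7) and 9588 bp (chr8:75083726-75084109, 13.2 and 30) from an end of Hmox1, the heme oxygenase gene, which has well-known upstream enhancers. Whether these peaks lie at those enhancers was not tested. The strongest peak around Mcm2 by −log10 q (205 and 137, folds of 15 and 15.8) lay 275 bp from an end of Abtb1. Around Cdt1 the highest replicate 2 fold (21.8, with 9.76 in replicate 1) was 223 bp from an end of Trappc2l.

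H3K27ac regions lay at the ends of some of the 9 genes in each condition. Within 1 kb of an end, Mcm3, Mcm4 and Mcm6 had a region in CD, which is 3 of 9 against that 38.3% of all genes. In DMSO, Cdc6, Cdt1, Mcm4 and Mcm6 had one, which is 4 of 9 against 35.8%. Both shares are near those of all genes. Within 2.5 kb, 8 of the 9 genes had a region in CD, all but Orc1, against 56.2% of all genes, and the same 4 as within 1 kb had one in DMSO, against 49.4%. There were 12 such regions in CD, with a median −log10 q of 1.69, and 7 in DMSO, with a median of 1.57. Over the whole lists, which stop at 1.00, the medians were 1.39 and 1.5. The highest values were 2.07 in CD (Mcm7) and 2.38 in DMSO (Mcm4). Keeping only regions at 2 or above, no gene of the set was marked within 1 kb in CD, where 6.65% of all genes were, and only Mcm4 in DMSO, where 8.84% were. Of the 6 Flag-Rxra peaks at gene ends, those of Mcm4 and Mcm6 overlapped a CD region and those of Cdc6, Cdt1 and Mcm4 a DMSO region. Over all 6406 shared peaks at gene ends these shares were 35.8% and 43.9%. Mcm5 and Mcm7 had a shared peak and no H3K27ac region within 1 kb in either list, which are 2 of the 4 genes of the set without H3K27ac. Among all such genes 12.2% had a shared peak, and among genes marked in either list 50.6%, where the set had 4 of 5.

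The 2 conditions differed in opposite directions within the set. Near Cdt1, the bases covered by H3K27ac regions within 2.5 kb of the ends numbered 319 in CD and 1399 in DMSO. The CD bases all lay in a region inside the neighbouring gene Aprt, 7297 bp from the Cdt1 start. A DMSO region of 376 bp also lay inside Aprt, 6704 bp from the Cdt1 start. A DMSO region of 747 bp (−log10 q of 1.57) ran up to 25 bp before the Cdt1 start, and CD had none there. Near Cdc6 the covered bases numbered 302 in CD and 563 in DMSO, and near Mcm4 629 and 954. Of the Cdc6 DMSO bases, 403 lay in a region past the far end of the gene, 16748 bp from the start. At the start end, the Cdc6 regions covered 160 bases in DMSO and 302 in CD. Mcm7 had 532 bases in CD and 0 in DMSO, Mcm6 851 and 471, Mcm5 287 and 0, Mcm3 140 and 0 and Mcm2 26 and 0. None of the Mcm7 CD regions lay at a Mcm7 start. They were 9066, 7976 and 2697 bp from the nearest RefSeq start, the last of them inside Ap4m1. Of the Mcm5 bases, 143 lay in a region 17370 bp from its start. Orc1 had 0 in both around its annotated ends. At its inner RefSeq start, 1 CD region and no DMSO region lay within 1 kb. In all, 5 genes had more in CD, against 35.8% of all genes, and 3 had more in DMSO, against 32.1%. These counts pool both gene ends and can include regions at neighbours. The 26 bases of Mcm2 were the edge of a region of 356 bp that began 2475 bp from the gene. If only regions at a −log10 q of at least 2 were kept, Mcm7 alone was higher in CD (9.69% of all genes) and Mcm4 alone in DMSO (11.8%). The Mcm7 region kept, with a −log10 q of 2.07, was the one 7976 bp from a start. When the CD list was shortened from its weakest regions to the covered length of the DMSO list, Mcm6 turned to DMSO, with a CD minus DMSO difference of -61 bases in place of 380. The counts were then 4 in CD, against 31.3% of all genes, and 4 in DMSO, against 34.1%.

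The 50 kb windows, which include neighbouring genes, held more H3K27ac in CD for Orc1, Mcm2, Mcm3, Mcm4, Mcm5 and Mcm6 and more in DMSO for Cdc6, Cdt1 and Mcm7. The 6 genes higher in CD compare with 59.0% of all genes, and the 3 higher in DMSO with 31.5%. Around Orc1, CD regions covered 5209 bases and DMSO regions 2121, and around Mcm6 they covered 3766 and 1395. Around Cdt1 the CD value was 3970 and the DMSO value 6558, around Cdc6 3873 and 6224, and around Mcm7 3802 and 6399. The other 4 genes had between 3307 and 3914 bases in CD and between 1954 and 2830 in DMSO. The median difference of CD minus DMSO was 700 bases for the set and 262 for all genes, whose CD list is the longer. Under the same stricter limit the count turned, with 1 gene higher in CD (Orc1), against 34.5% of all genes, 7 higher in DMSO, against 39.1%, and Mcm6 equal. The balance over all genes thus also moved towards DMSO. With covered lengths matched the 6 and 3 genes stayed the same, against 46.0% and 42.7% of all genes, while the CD minus DMSO difference of Mcm4 moved from 1396 to 145 bases and that of Mcm5 from 477 to 100. With 1 list per condition no test was possible.

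**Figure D3:**
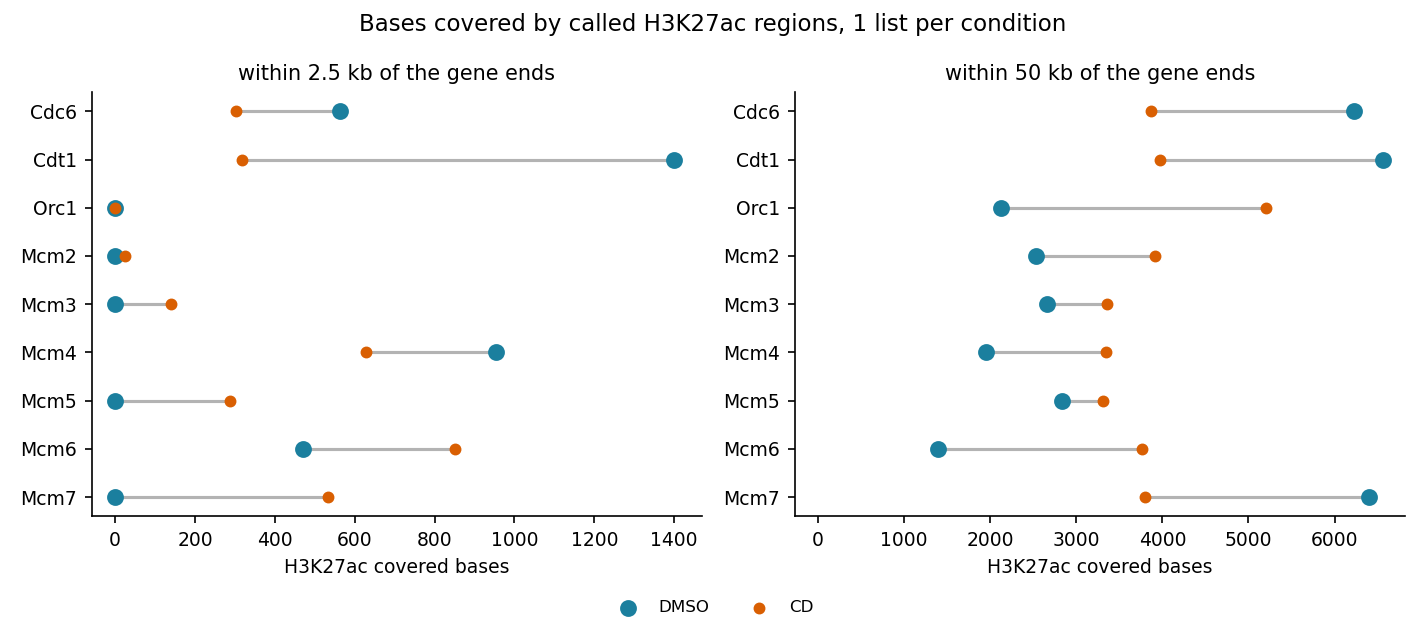
Bases covered by called H3K27ac regions within 2.5 kb (left) and 50 kb (right) of the ends of each gene, in CD (orange) and DMSO (blue), with 1 list per condition and so no error bars. Cdc6 and Cdt1 are higher in DMSO in both windows, Mcm4 only in the left and Mcm7 only in the right. The windows pool both gene ends. On the left 403 of the Cdc6 DMSO bases lie past the end away from its start, and the Cdt1 CD bases lie inside the neighbouring gene Aprt.

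Among other genes of DNA replication and of its E2F and RB control, 36 of 60 over 5 lists had a shared Flag-Rxra peak at an end (against the 32.6% of all genes given above). Of the 7 other licensing genes, 4 had one: Orc3 (14.8 and 18.6), Orc5 (13.0 and 13.5) and Orc6 (11.2 and 15.6), further subunits of the origin recognition complex, and Gmnn (10.1 and 21.6), which encodes geminin, the inhibitor of Cdt1. Orc2, Orc4 and Mcmbp had none. Of 14 genes of helicase activation and origin firing, 10 had one, led by Ticrr (18.0 and 28.1), Gins2 (21.2 and 21.6), Mcm10 (14.6 and 22.5) and Gins1 (16 and 17.3). Ticrr promotes loading of Cdc45, and the GINS subunits complete the active helicase. At the replication fork 9 of 19 had one, among them the sliding clamp Pcna (19.8 and 20.4), Rpa3 (17.9 and 15.3), Rfc2 (11.9 and 20.1) and Rfc4 (12.8 and 17.9). Of 17 genes of E2F and RB control 10 had one, among them cyclin A2, Ccna2 (21.0 and 22), and the activators E2f3 (13.5 and 28.3) and E2f1 (12.6 and 14.0), followed by Cdk2 (12.9 and 12.7). Mcm8, Mcm9 and Mcmdc2, which are not part of the loaded ring, all had one. For 15 of the 36 genes another protein-coding gene has an end within 1 kb of the same peak, so that the peak cannot be assigned to one of them. Of those named here this holds for Orc3 (with Rars2), Orc6 (Vps35), Pcna (Cds2), Rpa3 (Umad1), Ccna2 (Bbs7) and Mcm8 (Trmt6).

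H3K27ac lay within 1 kb of an end of 32 of these 60 genes in CD and of 32 in DMSO, against the 38.3% and 35.8% of all genes given above. The origin firing list had it at 11 of 14 in CD and 8 in DMSO, the replication fork list at 8 of 19 and 10, the E2F and RB list at 8 of 17 in each, the other licensing genes at 4 of 7 in each and the other MCM genes at 1 of 3 and 2. In the 50 kb windows CD covered more bases than DMSO at 44 of the 60 genes and fewer at 16, where all genes also lean to CD (59.0% and 31.5%). In the 2.5 kb windows it covered more at 25, fewer at 28 and as many at 7 (35.8% and 32.1% of all genes for more and fewer). With covered lengths matched the 50 kb counts were 34 and 26, and with regions at a −log10 q of at least 2 they turned to 24 and 30.

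**Figure D4:**
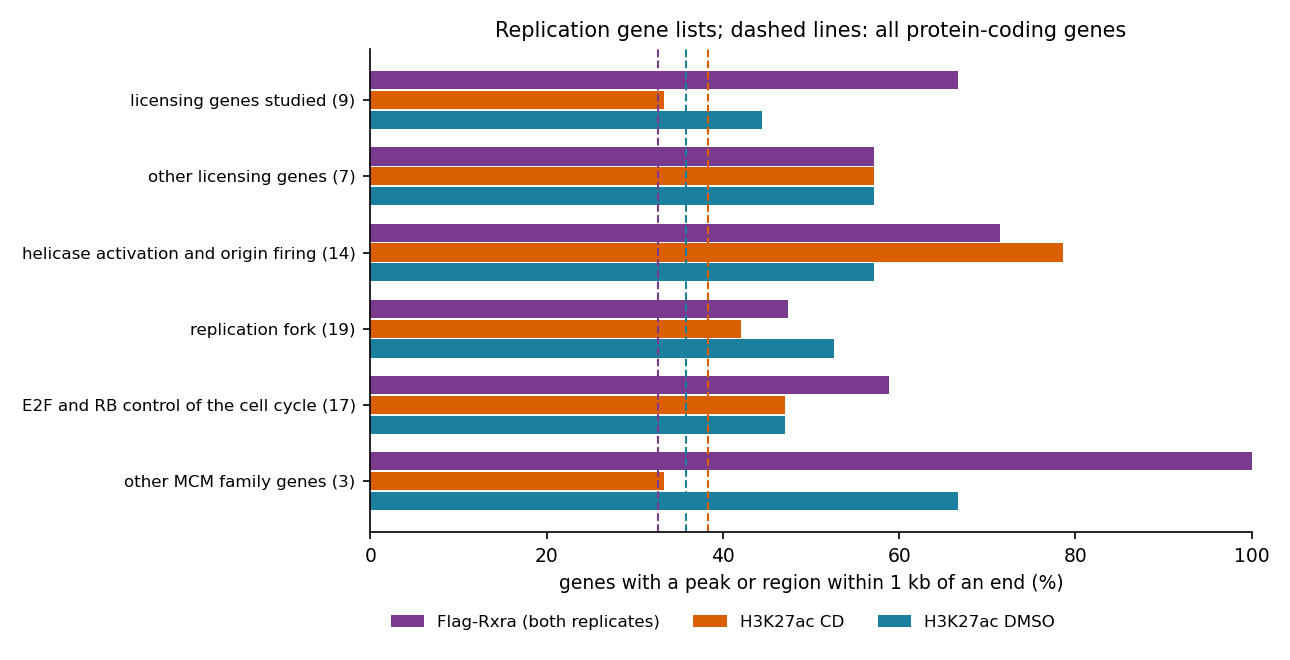
Percent of genes with a shared Flag-Rxra peak (purple), a CD H3K27ac region (orange) or a DMSO H3K27ac region (blue) within 1 kb of an end, for the 9 licensing genes and 5 further lists with their gene numbers in brackets; bars start at 0, and dashed lines mark all protein-coding genes (32.6%, 38.3% and 35.8%). For the 9 genes the purple bar is at 66.7% and the H3K27ac bars are near the dashed lines.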

How the data were processed

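The 4 deposited files are peak lists from CUT&Tag of 6 samples. Per the submitters' processing notes, build mm10 and the tools MACS2 2.1.2, Bowtie2 2.2.5, deepTools 3.4.3 and fastp 0.20.1 were used, with settings and control not given in the sources used here. A peak carries a fold enrichment, a ratio over the authors' background, and a −log10 q value, also as deposited. H3K27ac lists are of the broad type, starting at a −log10 q of 1.00, and Flag-Rxra lists of the narrow type, starting at 5.00, so values are not comparable between them.

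Computations used Python 3.11.15, numpy 2.4.6 and pandas 2.3.3, with figures by matplotlib 3.10.9. Gene ends came from RefSeq GRCm38.p6, the assembly of mm10, and starts and sequences from its promoter table. Shared peaks overlapped by 1 bp or more, with replicate 1 coordinates and the highest fold of the overlapping replicate 2 peaks. Windows are the union around both ends. Interval functions were tested on simulated regions. The members and lists were chosen with earlier results of these data known, so nothing was tested. All 9 genes are named, and in other lists the up to 4 best by summed fold rank. Genes most like Cdc6 were the 5 nearest by Euclidean distance over log2 fold in both Flag-Rxra lists and log2(covered bases + 100) within 2.5 kb in both H3K27ac lists.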

Additional observations from a re-analysis of the deposited data

How the results depend on the processing

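The count of genes with a shared Flag-Rxra peak at an end was 6 without replicate 1 and 6 without replicate 2, the same genes, against 42.1% and 41.7% of all genes in these lists. It was 4 with an overlap of 50% of both peaks (Cdt1, Mcm5, Mcm6 and Mcm7, without Cdc6 and Mcm4), where 20.2% of all genes had one. Peaks within 50 kb, 24 as reported, numbered from 37 (without replicate 2) to 47 (without replicate 1), 11 with the 50% overlap and 14 with −log10 q of 20 or more. With H3K27ac regions of 2 or more, 0 genes were marked in CD and 1 in DMSO, the 2.5 kb windows held more for CD at 1 gene and more for DMSO at 1, and the 50 kb windows more for CD at 1 and more for DMSO at 7. There the difference of CD minus DMSO within 50 kb turned to -466 for Mcm2, -86 for Mcm3, -736 for Mcm4 and -100 for Mcm5. A window of 2.5 kb marked 8 genes in CD and 4 in DMSO. With covered lengths matched between the lists, the Mcm6 difference within 2.5 kb turned to -61 and that of Mcm5 moved from 287 to 144, and within 50 kb those of Mcm4 moved from 1396 to 145, Mcm5 from 477 to 100, Mcm6 from 2371 to 1450 and Cdc6 from -2351 to -4140. Of all the counts of genes and peaks under these settings, 19 stayed within 1.5 times of the reported ones and 11 did not. The cause of these changes was not tested. No paired analysis was possible because each H3K27ac condition had 1 list and no result came from a test. Depth is unknown, so no limit of detection can be given.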

Other observations

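Among the 7127 other genes with a shared Flag-Rxra peak at an end, the 5 whose values over the 4 lists were nearest to those of Cdc6 were Tmem65 (folds of 22.6 and 35.4), Nkapl (27.7 and 39.5), Tpt1 (21.4 and 30.8), and Dnaaf5 and Prkar1b, which had the same peak (21.1 and 29.0). Their H3K27ac covered bases within 2.5 kb were 238 in CD and 605 in DMSO for Tmem65, 337 and 430 for Nkapl, 338 and 637 for Tpt1, and 327 and 498 for Dnaaf5 and Prkar1b. All 5 had more in DMSO, which the choice by distance to Cdc6 favours.

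The MCM genes outside the loaded ring had folds of 11.7 and 12.3 (Mcm8), 11.9 and 17.8 (Mcm9) and 8.73 and 22.3 (Mcmdc2). Near Mcm8 the bases covered by H3K27ac within 2.5 kb numbered 320 in CD and 1339 in DMSO, near Mcmdc2 1096 and 162, and near Mcm9 0 in both.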
